A study of Mus musculus with 2 samples.

Results

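The Polycomb repressive complex genes described here are 33 genes chosen by name, of 17216 genes with a value in at least 1 of the libraries: 11 subunits of Polycomb repressive complex 2 (PRC2), 10 of canonical Polycomb repressive complex 1 (PRC1), 10 of variant PRC1, and the 2 catalytic subunits that both kinds of PRC1 share. RNA came from cells gated as long-term haematopoietic stem cells (negative for lineage markers and CD48, positive for Sca-1, c-Kit and CD150). It was sequenced from mice with the genotype Ccp3-/-, which are deficient in the deglutamylating enzyme CCP3, and from wild type littermates, all of strain C57BL/6. There was 1 library per genotype, so the genotypes could not be tested against each other, and every value below sets 1 library beside 1 other. The labels give neither the age and sex of the mice, nor the number pooled, nor the deleted part of the gene.

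Polycomb proteins keep developmental genes silent. PRC2 places methyl groups on lysine 27 of histone H3 through EZH1 or EZH2, and PRC1 places ubiquitin on histone H2A through RING1 or RNF2. Canonical PRC1 carries a CBX protein that reads the PRC2 mark and a PHC protein that compacts chromatin, whereas variant PRC1 carries RYBP or YAF2 and is brought to CpG-rich DNA by other subunits such as KDM2B. In blood stem cells the complexes are known for guarding self-renewal, with BMI1 as the classical example.

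Levels are FPKM (fragments per kilobase, scaled to the library's depth), so genes can be compared per length within a library. The difference of a gene is taken on the log2(FPKM + 1) scale as knockout-labelled minus wild type, a scale that understates the change of low genes. A member was counted as higher or lower when its mean was at least 1 FPKM and its difference reached 1.5-fold, which is 0.58 on the log2 scale. Low FPKM values fell on steps that gave about 14.2 M reads in the knockout-labelled and 15.4 M in the wild type library, and reads estimated from them gave approximate 95% exact intervals of each ratio, which cover counting error only. Agbl3, the gene of CCP3, had 0.66 FPKM in the knockout-labelled and 1.11 FPKM in the wild type library, from about 15 and 23 reads, a ratio of 0.595 (0.289 to 1.19). Its interval included 1, so it did not check the genotype label, and each direction below rests on that label.

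The sorted cells carried RNA of several lineages, and the libraries differed in it. Cd48, whose protein the gate excluded, stood at 114 FPKM in the knockout-labelled and 136 FPKM in the wild type library, so the labelled cell type was not borne out by this marker. Of 12 stem cell identity markers, 4 were at least 1.5-fold lower, with summed levels of 154 FPKM in the knockout-labelled and 217 FPKM in the wild type library. Of 5 multipotent progenitor markers, 2 were lower, with sums of 691 FPKM in the knockout-labelled and 1063 FPKM in the wild type library. Neutrophil markers were higher for 6 of 12, with 11697 FPKM in the knockout-labelled and 8460 FPKM in the wild type library. Of these 12, 3 had a difference below 0. B cell markers were lower for 9 of 10 (66.7 FPKM in the knockout-labelled and 149 FPKM in the wild type library), and dendritic cell markers for 5 of 9 (678 FPKM in the knockout-labelled and 856 FPKM in the wild type library). Red cell markers were lower for 6 of 8 (444 FPKM in the knockout-labelled and 1491 FPKM in the wild type library), and T cell markers for 3 of 6 (25.6 FPKM in the knockout-labelled and 38.4 FPKM in the wild type library). The red cell markers Klf1 and Car1 and the dendritic cell marker Xcr1 had a difference above 0. Car1 had 123.9 FPKM in the knockout-labelled and 109 FPKM in the wild type library. Hba-a1 alone had 155 FPKM in the knockout-labelled and 764 FPKM in the wild type library. No marker of these lists was at 0 in either library. In such bulk samples, fewer cells of a type and less RNA per cell cannot be told apart, and the part of this cell mix in the Polycomb values was not tested.

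All 33 Polycomb genes were expressed above 1 FPKM in both libraries, and most differed little between them. Only Suz12 and Aebp2, both of PRC2, were at least 1.5-fold higher in the knockout-labelled library, and only Pcgf1, of variant PRC1, was at least 1.5-fold lower. The other 30 members lay within 1.5-fold. Of the 11985 genes whose mean reached 1 FPKM, 6.11% passed this limit upward and 6.13% downward, so the members' counts of 2 and 1 of 33 were close to the background. The member just inside the limit was Pcgf1, at −0.72, and the member just outside it was Jarid2, at 0.50. No member reached 2-fold, against 1.21% higher and 1.55% lower of all genes.

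The members' median difference was 0.13, beside 0.01 over all genes tested, and 23 of 33 members had a difference above 0, beside 50.8% of all genes. The counting interval lay above a ratio of 1 for 16 members and below it for 7, beside 31.2% and 27% of all genes. By complex, the median was 0.18 for PRC2, −0.05 for canonical PRC1 and 0.17 for variant PRC1. Scaling both libraries to the same FPKM sum moved the median of all genes to 0.18 and turned the canonical PRC1 median to 0.13. With that scaling 12.3% of all genes were at least 1.5-fold higher and 3.31% lower, and among members Jarid2 joined the higher genes while Pcgf1 left the lower.

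**Figure D1:**
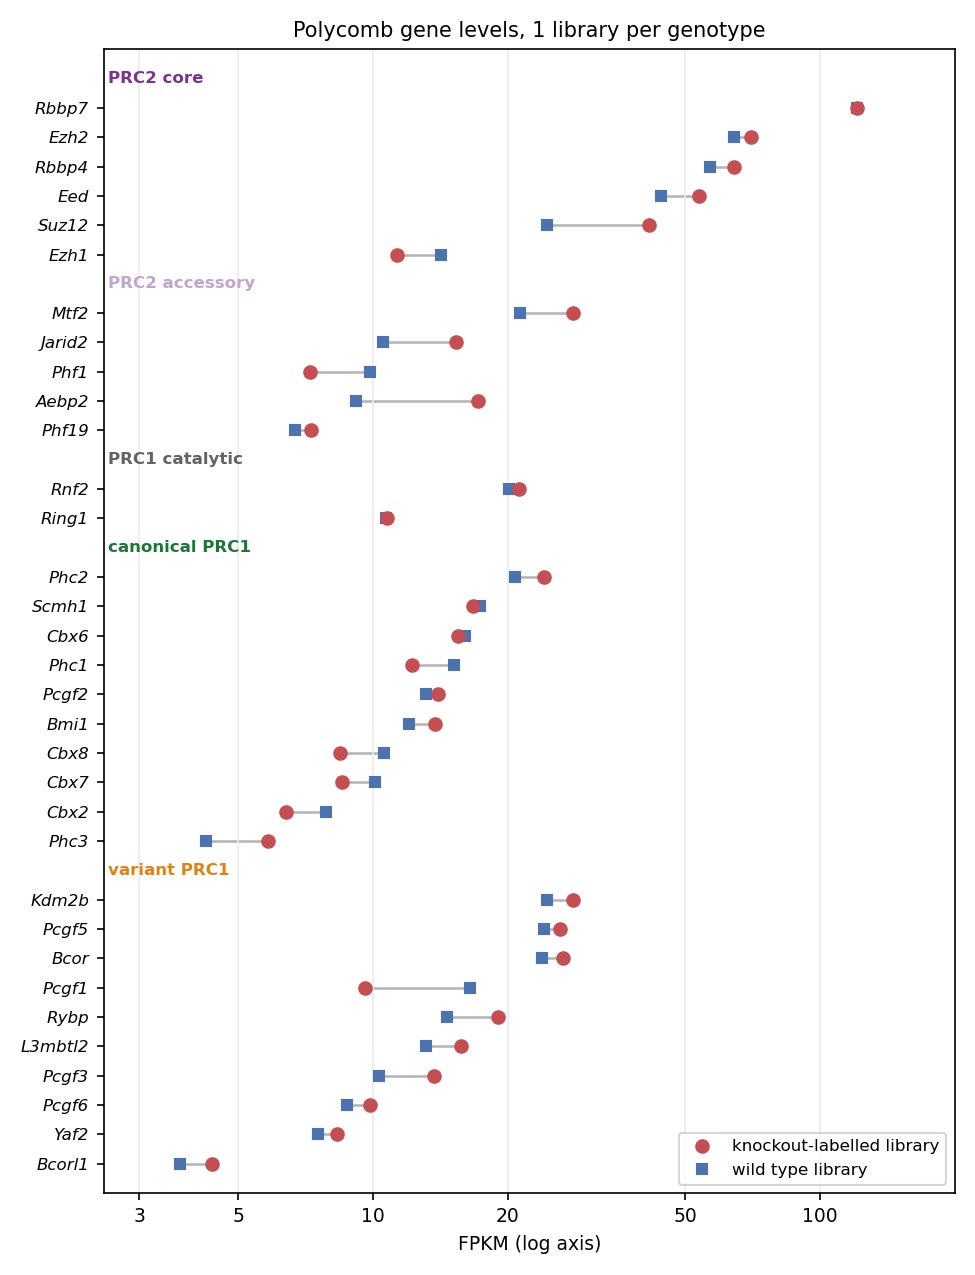
FPKM of the 33 Polycomb genes on a log axis, in the knockout-labelled library (circles) and the wild type library (squares), 1 library each, ordered by wild type level within each subgroup. The PRC2 core reaches 120.8 and 120.9 FPKM with Rbbp7, Bcorl1 is lowest at 4.37 FPKM (knockout-labelled) and 3.70 FPKM (wild type), and the widest gaps belong to Suz12, Aebp2 and Pcgf1.

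The PRC2 core was the most abundant group. The histone-binding protein genes Rbbp7 and Rbbp4, which also serve other chromatin complexes, were abundant. Rbbp7 stood at 120.8 FPKM in the knockout-labelled and 120.9 FPKM in the wild type library, and Rbbp4 at 64.1 FPKM in the knockout-labelled and 56.6 FPKM in the wild type library. Rbbp7 had a ratio of 0.999 (0.956 to 1.04), the narrowest difference of the group. With Ezh2 and Eed these were the 4 most abundant members in both libraries, at or above percentile 84.3 of the genes tested.

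Suz12 encodes the scaffold on which PRC2 assembles. It was listed at 41.4 FPKM in the knockout-labelled library and 24.5 FPKM in the wild type library, from about 2594 and 1666 reads, a ratio of 1.69 (1.59 to 1.80). Its partner Eed, which binds the H3K27 methyl mark and stimulates the enzyme, had 53.6 FPKM in the knockout-labelled and 44.0 FPKM in the wild type library, a ratio of 1.22 (1.13 to 1.31). Between these libraries the core subunits did not share 1 ratio, because Suz12 differed by more than Eed, Ezh2, Rbbp4 and Rbbp7. The intervals of the latter 4 ratios, which cover counting error only, all ended below that of Suz12. Set against genes of similar length, a reference described below, Suz12 went from 0.73 to 0.61 and Eed from 0.28 to 0.34.

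The catalytic subunits went opposite ways. Ezh2, the methyltransferase of dividing cells, was listed at 70.1 FPKM in the knockout-labelled and 64.2 FPKM in the wild type library, a ratio of 1.09 (1.03 to 1.15). Ezh1, the paralog that persists in resting cells, was listed at 11.35 FPKM in the knockout-labelled and 14.2 FPKM in the wild type library, a ratio of 0.801 (0.724 to 0.886). Both directions held when the sums were scaled to be equal. Set against genes of similar length and level, a reference described below, Ezh2 went from 0.12 to 0.035 and Ezh1 from −0.30 to −0.44. The Ezh2 to Ezh1 ratio, which no scaling between libraries can change, was 6.17 in the knockout-labelled and 4.53 in the wild type library, a 1.36-fold difference (1.21 to 1.53). Among proliferation genes, named after their values were seen, Mki67 was listed at 140.3 FPKM in the knockout-labelled and 98.9 FPKM in the wild type library, and Top2a at 191 FPKM in the knockout-labelled and 163 FPKM in the wild type library. Pcna was listed at 311 FPKM in the knockout-labelled and 375 FPKM in the wild type library. With the median of the 200 genes nearest in length subtracted, the differences were smaller. They went from 0.50 to 0.17 for Mki67, from 0.23 to 0.08 for Top2a and from −0.27 to −0.09 for Pcna. The part of these proliferation genes in the Ezh values was not tested.

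Accessory subunits decide where PRC2 binds, and they fall into alternative sets. In the set called PRC2.2, Aebp2 was listed at 17.2 FPKM in the knockout-labelled and 9.18 FPKM in the wild type library, a ratio of 1.87 (1.72 to 2.05). Jarid2, whose protein binds PRC2 together with AEBP2, was listed at 15.3 FPKM in the knockout-labelled and 10.5 FPKM in the wild type library, a ratio of 1.46 (1.34 to 1.59). Aebp2 had the widest difference of all 33 members, and it exceeded Jarid2 in the knockout-labelled library while Jarid2 exceeded it in the wild type library. The length behind the Aebp2 value also differed: the tables give its 5 transcripts a joint length of 5453 bases in the knockout-labelled and 5877 bases in the wild type library, a change of −7.22%. On estimated reads scaled for depth, without the length, the ratio was 1.74. Aebp2 was the only one of 16 members with several transcripts whose length changed by at least 5%, which 5.66% of all such genes did.

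The set called PRC2.1 is built on 1 of 3 Polycomb-like proteins. Mtf2 was listed at 28.0 FPKM in the knockout-labelled and 21.3 FPKM in the wild type library, a ratio of 1.31 (1.23 to 1.41). Phf1 was listed at 7.23 FPKM in the knockout-labelled and 9.84 FPKM in the wild type library, a ratio of 0.735 (0.623 to 0.866). Phf19, at 7.27 FPKM in the knockout-labelled and 6.70 FPKM in the wild type library, did not differ beyond counting error (1.09, 0.939 to 1.253). Mtf2 thereby made up 65.9% of the sum of the 3 genes in the knockout-labelled library and 56.3% in the wild type library. Both of the genes that differed share exons with a neighbour on the other strand in GENCODE M21, and whether the counting used strand is not given in the sources used here. Cuta, which overlaps Phf1, was listed at 65.6 FPKM in the knockout-labelled and 89.7 FPKM in the wild type library, and Tmed5, which overlaps Mtf2, at 32.6 FPKM in the knockout-labelled and 23.7 FPKM in the wild type library. Each neighbour thus differed in the same direction as the Polycomb gene. The shared exon bases number 1370 for Phf1, whose length is 2447 bases in the wild type library. For Mtf2, of 4443 bases in that library, they number 395. Reads within the shared bases cannot be told apart, and their part in the 2 values was not tested.

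The promoters of Suz12, Aebp2 and Ezh2 are shown because the first 2 are the PRC2 genes that reached 1.5-fold and the third is the catalytic subunit of the same complex. Each is the window from 250 bases before to 50 after a transcription start, from RefSeq on GRCm38.p6, written 5′ to 3′ on the gene's strand. Capitals mark the E2F letters TTCCCGC and the CCAAT box letters CCAAT on either strand. Suz12 lies at chr11:79992856-79993155 on the plus strand and Ezh2 at chr6:47594981-47595280 on the minus strand. Of 3 Aebp2 windows, the one with the most CpG dinucleotides is given, at chr6:140624659-140624958 on the plus strand.
Suz12: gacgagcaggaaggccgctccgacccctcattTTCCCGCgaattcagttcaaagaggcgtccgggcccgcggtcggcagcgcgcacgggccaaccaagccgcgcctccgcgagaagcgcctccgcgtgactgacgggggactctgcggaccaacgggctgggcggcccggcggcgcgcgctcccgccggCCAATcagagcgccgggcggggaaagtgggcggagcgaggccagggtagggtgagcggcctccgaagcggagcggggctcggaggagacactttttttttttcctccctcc
Aebp2: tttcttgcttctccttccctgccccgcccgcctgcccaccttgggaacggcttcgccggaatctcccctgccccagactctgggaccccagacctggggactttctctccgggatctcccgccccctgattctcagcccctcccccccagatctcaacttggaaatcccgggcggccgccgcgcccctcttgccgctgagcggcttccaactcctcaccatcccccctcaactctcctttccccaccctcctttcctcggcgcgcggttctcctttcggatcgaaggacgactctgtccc
Ezh2: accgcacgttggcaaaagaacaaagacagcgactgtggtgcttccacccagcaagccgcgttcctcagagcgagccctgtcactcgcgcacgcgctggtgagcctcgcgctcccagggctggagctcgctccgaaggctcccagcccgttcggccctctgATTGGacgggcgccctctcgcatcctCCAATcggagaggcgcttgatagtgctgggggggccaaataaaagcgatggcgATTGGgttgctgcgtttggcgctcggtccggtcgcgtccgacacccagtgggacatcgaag

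The windows shown hold 41 CpG dinucleotides in Suz12, 21 in Aebp2 and 31 in Ezh2. The Aebp2 window was picked for its CpG number, and the Aebp2 windows not shown hold 4 each. RefSeq windows were matched for 29 of the 33 members (42 windows), and their median was 23 CpG, beside 20 for windows of all genes tested. The E2F letters, bound by the factors that drive S phase genes, were found in 4 of 42 member windows (9.52%), those of Suz12, Phf19, Pcgf5 and Scmh1, beside 8.17% of windows of genes tested and 4.6% of all windows. The CCAAT box was found in 17 member windows (40.5%), beside 38.4% of windows of genes tested and 37.4% of all. The letters CCGGAAG, bound by ETS factors, were found in 1 member window (2.38%), beside 18.2% of windows of genes tested and 8.86% of all. The 2 genes that were higher did not share the E2F letters, and the Aebp2 window shown holds neither motif. Matches describe these windows only.

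The catalytic subunits of PRC1 did not differ beyond counting error. Rnf2, the main ubiquitin ligase, was listed at 21.25 FPKM in the knockout-labelled and 20.1 FPKM in the wild type library, a ratio of 1.06 (0.963 to 1.16). Its paralog Ring1 was listed at 10.7 FPKM in each library, a ratio of 1.005 (0.857 to 1.18). Rnf2 made up 66.4% of their sum in the knockout-labelled library and 65.3% in the wild type library.

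**Figure D2:**
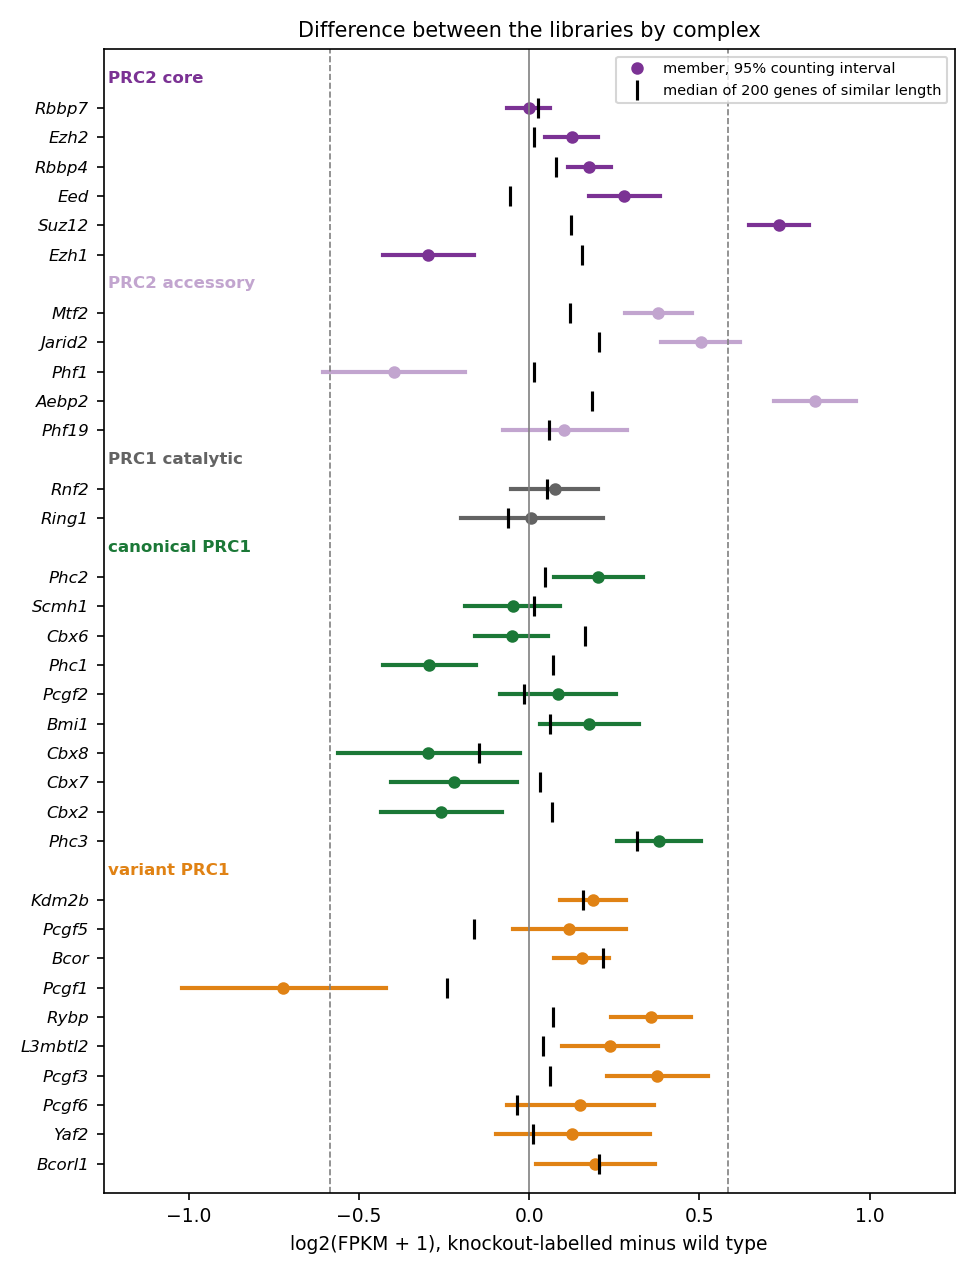
Difference of each member in log2(FPKM + 1), knockout-labelled minus wild type, with 1 library each. Points are members with their 95% counting interval, black ticks are the median of the 200 genes of similar length, and dashed lines mark 1.5-fold. Suz12 and Aebp2 lie beyond the right line and Pcgf1 beyond the left.

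No canonical PRC1 gene reached 1.5-fold, and the group went both ways, with 4 members above 0 and 6 below. Its summed level was 125 FPKM in the knockout-labelled and 127 FPKM in the wild type library. Among the PCGF proteins that define this complex, Bmi1 was listed at 13.8 FPKM in the knockout-labelled and 12.1 FPKM in the wild type library, a ratio of 1.14 (1.02 to 1.27). Its paralog Pcgf2 was listed at 14.0 FPKM in the knockout-labelled and 13.1 FPKM in the wild type library, with an interval that included 1 (0.938 to 1.21).

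The CBX proteins read the PRC2 mark, and all 4 of the members were below 0, although Cbx6 turned to 0.13 with equal sums. Cbx7, which is tied to self-renewal of blood stem cells, was listed at 8.53 FPKM in the knockout-labelled and 10.1 FPKM in the wild type library, a ratio of 0.844 (0.731 to 0.973). Cbx8 was listed at 8.44 FPKM in the knockout-labelled and 10.6 FPKM in the wild type library, a ratio of 0.797 (0.648 to 0.979), and Cbx2 at 6.39 FPKM in the knockout-labelled and 7.84 FPKM in the wild type library. Cbx6 was the most abundant of the 4, at 15.5 FPKM in the knockout-labelled and 16.1 FPKM in the wild type library. The sum of these 4 was 38.9 FPKM in the knockout-labelled and 44.6 FPKM in the wild type library, and the share of Cbx6 in it was 39.9% in the knockout-labelled and 36.1% in the wild type library.

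The PHC proteins polymerise through their SAM domains and draw PRC1 into clusters. Phc1 was listed at 12.2 FPKM in the knockout-labelled and 15.2 FPKM in the wild type library, a ratio of 0.804 (0.725 to 0.891). Phc2, the most abundant canonical subunit, was listed at 24.1 FPKM in the knockout-labelled and 20.8 FPKM in the wild type library, a ratio of 1.16 (1.05 to 1.27). Phc3, the least abundant, was listed at 5.82 FPKM in the knockout-labelled and 4.24 FPKM in the wild type library, a ratio of 1.37 (1.24 to 1.52). The family sum was close, at 42.1 FPKM in the knockout-labelled and 40.2 FPKM in the wild type library, while the share of Phc1 was 29.0% in the knockout-labelled and 37.8% in the wild type library. Scmh1, a further SAM domain partner, was listed at 16.7 FPKM in the knockout-labelled and 17.3 FPKM in the wild type library and did not differ beyond counting error (0.965, 0.870 to 1.07).

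**Figure D3:**
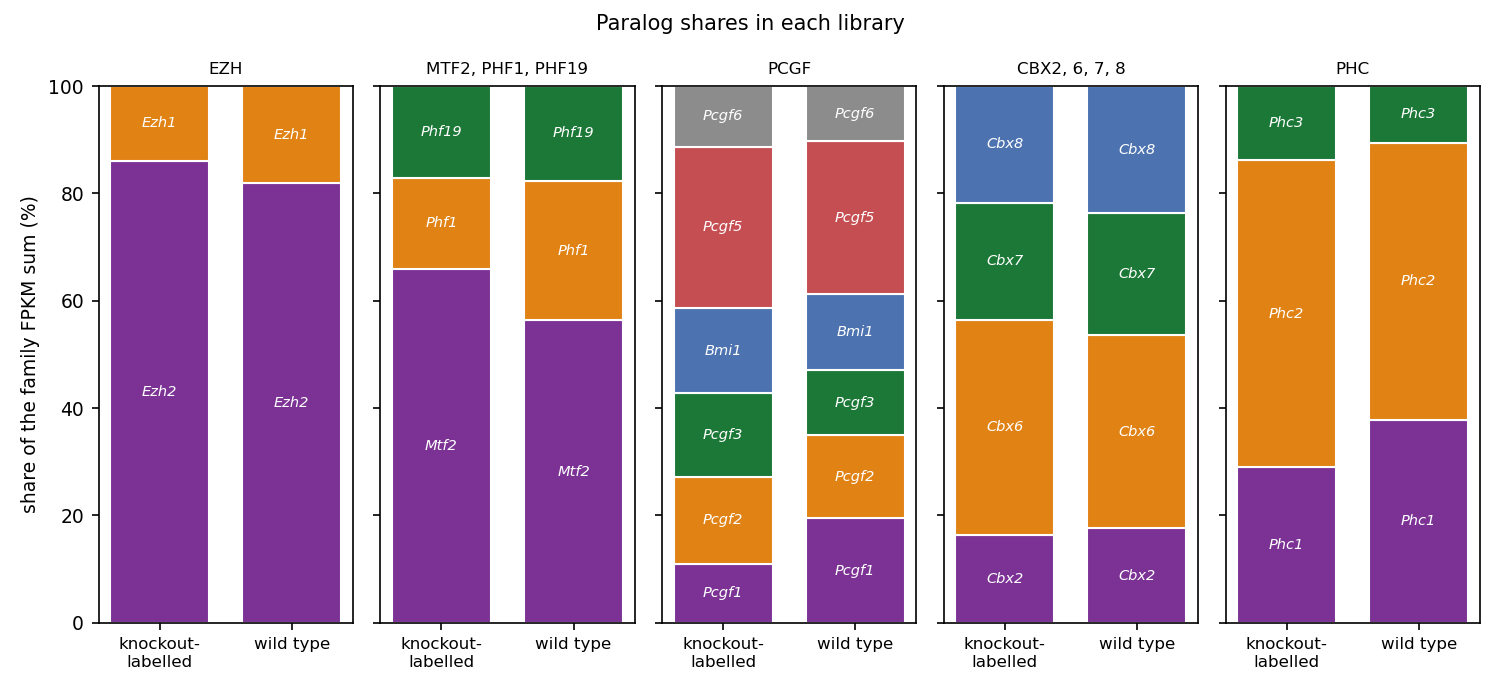
Share of each paralog in the FPKM sum of its family (percent), knockout-labelled library left and wild type library right in each panel, 1 library each. The share of Pcgf1 was 11.0% in the knockout-labelled and 19.4% in the wild type library, and that of Mtf2 was 65.9% in the knockout-labelled and 56.3% in the wild type library.

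In variant PRC1, 9 of 10 genes were above 0, beside 50.8% of all genes, and Pcgf1 was below. Set against genes of similar length, 7 of the 10 were above. Pcgf1 defines the form of PRC1 that holds KDM2B and BCOR. It was listed at 9.61 FPKM in the knockout-labelled and 16.5 FPKM in the wild type library, from about 119 and 221 reads, a ratio of 0.582 (0.462 to 0.731). Its partners did not follow it: Kdm2b, which binds unmethylated CpG DNA, was listed at 28.0 FPKM in the knockout-labelled and 24.45 FPKM in the wild type library, a ratio of 1.14 (1.07 to 1.23). The corepressor gene Bcor was listed at 26.6 FPKM in the knockout-labelled and 23.8 FPKM in the wild type library, a ratio of 1.12 (1.05 to 1.18). Bcorl1, the least abundant of all members, was listed at 4.37 FPKM in the knockout-labelled and 3.70 FPKM in the wild type library, a ratio of 1.18 (1.02 to 1.37).

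The other PCGF genes of variant PRC1 were all above 0. Pcgf3 was listed at 13.7 FPKM in the knockout-labelled and 10.3 FPKM in the wild type library, a ratio of 1.33 (1.19 to 1.48). Pcgf5, which can replace PCGF3, was the most abundant PCGF gene, at 26.2 FPKM in the knockout-labelled and 24.1 FPKM in the wild type library, with an interval that included 1 (0.965 to 1.23). Pcgf6, of the form that silences germ cell genes, was listed at 9.84 FPKM in the knockout-labelled and 8.77 FPKM in the wild type library (0.952 to 1.32). Its partner L3mbtl2 was listed at 15.7 FPKM in the knockout-labelled and 13.2 FPKM in the wild type library, a ratio of 1.19 (1.07 to 1.32). Over the 6 PCGF genes with Bmi1, the sum was 87.1 FPKM in the knockout-labelled and 84.9 FPKM in the wild type library, and the share of Pcgf1 was 11.0% in the knockout-labelled and 19.4% in the wild type library. It ranked last of the 6 in the knockout-labelled library and second in the wild type library.

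RYBP and YAF2 stimulate the ligase of variant PRC1 in place of a CBX protein. Rybp was listed at 19.0 FPKM in the knockout-labelled and 14.6 FPKM in the wild type library, a ratio of 1.30 (1.19 to 1.42). Yaf2 was listed at 8.31 FPKM in the knockout-labelled and 7.53 FPKM in the wild type library, a ratio of 1.10 that included 1 (0.926 to 1.32). The Rybp to Yaf2 ratio was 2.29 in the knockout-labelled and 1.94 in the wild type library, which counting error could cover (0.969 to 1.43 for the ratio of the ratios).

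Rbbp7, Bcor and Bcorl1 are X-linked, and sex-linked genes differed between the libraries. Xist, which coats the silent X, had 44.2 FPKM in the knockout-labelled and 5.38 FPKM in the wild type library, and the Y-linked gene Eif2s3y had 11.5 FPKM in the knockout-labelled and 44.6 FPKM in the wild type library. The 3 X-linked members lay between −0.00 and 0.19, and the part of sex-linked RNA in these values was not tested. In GENCODE M21, 6 members share exons with an opposite-strand gene of at least 10 FPKM: besides Phf1 and Mtf2 these are Rnf2, Cbx7, Kdm2b and Rbbp7.

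Gene length moved with the difference. Across all 11985 genes tested the Spearman correlation between difference and length was 0.43 across genes, which are not independent replicates, and the median difference was −0.30 under 1000 bases and 0.31 from 7000 bases up. Across the 33 members it was 0.50, as a description with genes sharing both libraries. Of the 19 members with 3000 bases or more, 15 were above 0, with a median of 0.19, and of the 14 shorter ones 8 were, with a median of 0.05.

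Each member was therefore set beside the 200 genes outside the list that were nearest to it in length. After their median was subtracted, the members' median was 0.07, with 0.11 for PRC2, −0.10 for canonical PRC1 and 0.15 for variant PRC1. Then 21 of 33 members stood above genes of similar length, beside 50.1% of all genes. Suz12 (0.61) and Aebp2 (0.65) kept a difference of at least 1.5-fold, as 4.98% of all genes did, and no member was 1.5-fold lower, beside 4.41%. Only 6 of the 200 genes of similar length had a larger difference than Suz12, and only 4 a larger one than Aebp2. Pcgf1, at 908 bases the shortest member, had neighbours with a median of −0.24, so that −0.48 was left, and 18 of its 200 neighbours were lower still. Ezh1 stood out more with this reference: genes near its length of 4224 bases had a median of 0.16, which left −0.45, and 188 of the 200 had a higher value. Phc3, the longest member, came close to its neighbours, with 0.06 left of 0.38. Bcor and Bcorl1 changed sign, at −0.06 and −0.01, and Kdm2b was left with 0.03 of 0.19. With neighbours chosen for level as well as length, Suz12 was at 0.57, just under the limit, and Aebp2 at 0.62.

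**Figure D4:**
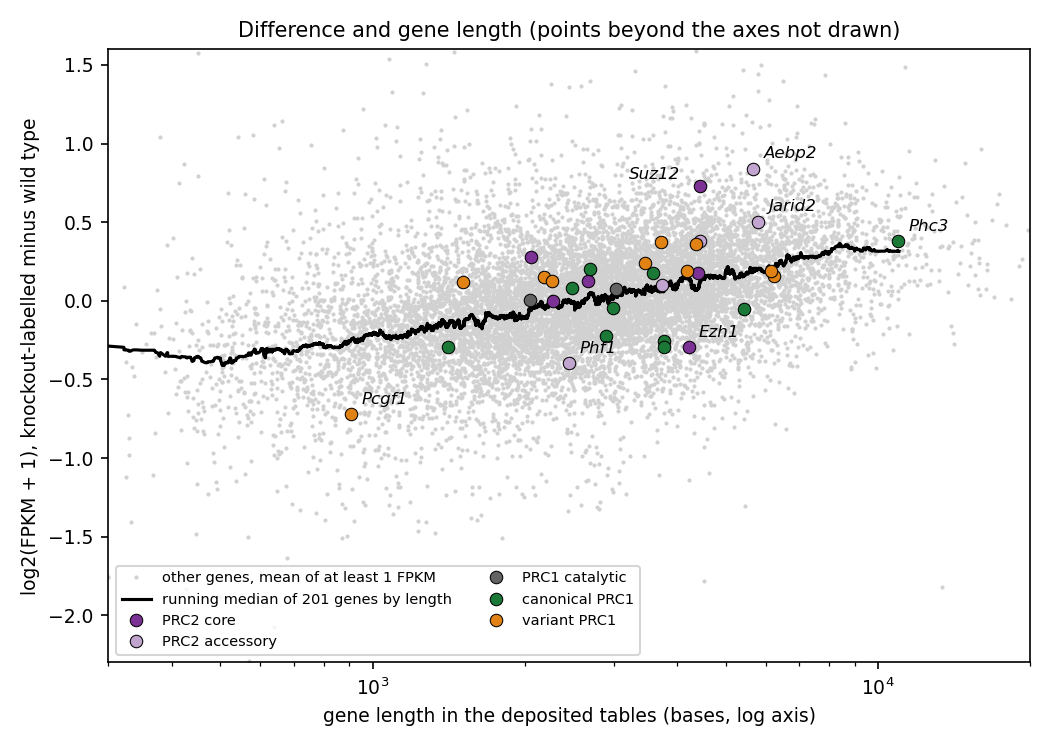
Difference in log2(FPKM + 1), knockout-labelled minus wild type, against gene length (log axis), 1 library each. Small points are other genes, the line is their running median by length, and large points are the 33 members by subgroup; Suz12 and Aebp2 lie well above the line, and Ezh1 and Phf1 below it.

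Of 30 further subunits and partners of PRC1 and PRC2, 26 had a mean of at least 1 FPKM, and none of them reached 1.5-fold in either direction on the log2(FPKM + 1) scale, beside 6.11% of all genes upward and 6.13% downward. Their median difference was 0.18, with 18 of 26 above 0, and 0.10 after subtraction of genes of similar length. The nearest to the limit on that scale, picked with its value in view, was Yy1, a DNA-binding factor tied to Polycomb recruitment, at 53.5 FPKM in the knockout-labelled and 36.0 FPKM in the wild type library, a ratio of 1.49. Lcor, a PRC2 partner gene of low level, had a larger FPKM ratio of 1.775 (1.35 to 2.35), with 2.13 FPKM in the knockout-labelled and 1.2 FPKM in the wild type library, and stayed under the limit through the added 1 FPKM.

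None of 9 enzymes and cofactors that remove the H3K27 or H2A marks reached 1.5-fold on the log2(FPKM + 1) scale, beside the same 6.11% and 6.13% of all genes. Their median difference was 0.18, with 7 of 9 above 0. After subtraction of genes of similar length the median was −0.02, and 4 of 9 stood above those genes. On the plain FPKM ratio Kdm6a and Asxl2 were past 1.5. Kdm6a, an X-linked H3K27 demethylase that escapes X inactivation, came closest, with a difference of 0.582, just under the limit of 0.585. It was listed at 12.9 FPKM in the knockout-labelled and 8.31 FPKM in the wild type library (ratio 1.56, 1.42 to 1.71), beside the Xist and Eif2s3y values above. Asxl2, a partner of the H2A deubiquitinase BAP1, followed at 14.3 FPKM in the knockout-labelled and 9.37 FPKM in the wild type library (difference 0.56, ratio 1.53, 1.42 to 1.64). These 2 were picked with their values in view.

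Genes that Polycomb is known to silence were mostly under 1 FPKM or without a value. Of 26 such genes, 13 had a value, and 5 had a mean of at least 1 FPKM; the other 13, Cdkn2a and Cdkn2b among them, were not analysed here. Those 5 were Cdkn1a, Cdkn1c, Hmga2, Ebf1 and Pax5, with levels of 0.79 to 20.2 FPKM in the knockout-labelled and 1.79 to 23.4 FPKM in the wild type library. Ebf1 and Pax5 were at least 1.5-fold lower, beside 6.13% of all genes, and both were under 1 FPKM in the knockout-labelled library and passed the filter only through the wild type library. No direction of the list can be read from the genes that passed, since 8 with a value were under the filter. These ranged from −0.17 (Bmp4) to 0.20 (Tbx5) on the log2 scale, and the counting intervals of Bmp4 and Tbx5 included 1. Ebf1, a master factor of B cells, was listed at 0.79 FPKM in the knockout-labelled and 2.12 FPKM in the wild type library, a ratio of 0.373 (0.272 to 0.505). Pax5, which fixes B cell identity, was listed at 0.84 FPKM in the knockout-labelled and 1.79 FPKM in the wild type library, a ratio of 0.469 (0.231 to 0.905). Both genes also belong to the B cell markers, of which 9 of 10 were lower. Hmga2, a chromatin protein gene of fetal stem cells, was listed at 2.15 FPKM in the knockout-labelled and 2.73 FPKM in the wild type library.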

How the data were processed

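RNA of 1 library per genotype was sequenced. The deposited tables hold FPKM computed by the authors, with a gene length, for each Entrez gene, per the file headers. The submitters' processing notes name RSEM, HISAT, HISAT2 and the build mm9, without versions, settings or strand. A gene listed in 1 table only was taken as 0 in the other. Symbols came from RefSeq on GRCm38.p6 (17169 of 17216 genes matched), used for names and chromosomes, and promoters from its windows. FPKM are not counts, so no count model was used. The step of low FPKM values of genes with 1 transcript (offsets of 38 and 40 bases for the knockout-labelled and wild type library, 87.9% and 87.0% of 347 and 377 values within 0.15 of a whole read, with the step chosen on these values) gave estimated reads and exact conditional intervals. The difference used a pseudocount of 1 FPKM. Steps, intervals and centring on length were tested on simulated data. Members and lists were chosen with earlier results of these data known. The plan was to name all members, genes of further lists at least 1.5-fold apart, and Agbl3. Other named genes, such as the proliferation, sex-linked and overlapping genes and list genes under the limit, were outside that plan. Ratios with intervals were planned for members 1.5-fold apart, Ezh1, Ezh2, Ring1, Rnf2 and the most and least abundant of each complex, and those of other members were added after their values were seen. Alternatives changed the pseudocount, filter, scaling, limit and length centring. Intervals used scipy 1.17.1, tables pandas 2.3.3 and numpy 2.4.6, and plots matplotlib 3.10.9, under Python 3.11.15. A further gene of the lists is not reported here.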

Additional observations from a re-analysis of the deposited data

How the results depend on the processing

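No paired analysis was possible because each genotype has 1 library. The number of members at least 1.5-fold higher was 2 and the number lower was 1. Estimated reads without the authors' length, and the centring on length and level together, were chosen after seeing the data. The number higher became 7 at a limit of 0.32 on the log2 scale, 0 at 2-fold, and 1 after centring on length and level. Of all genes tested, 17.9% were higher and 17.1% lower at the limit of 0.32. The number lower became 2 at that limit and 0 at 2-fold, with a pseudocount of 5 FPKM, with equal FPKM sums, after centring on 100, 200 or 400 genes of similar length, and after centring on length and level. Equal FPKM sums gave medians of 0.31 over all members, 0.36 for PRC2, 0.13 for canonical PRC1 and 0.34 for variant PRC1, and centring on length and level gave 0.035 for PRC2. Suz12, Aebp2 and Pcgf1 kept their direction in every alternative. With equal sums Rbbp7, Cbx6 and Scmh1 changed sign, and with the median ratio Ring1 did. The cause of these changes was not tested. Depth limits Pcgf1 most, the shortest member, which rests on about 119 and 221 reads in the knockout-labelled and wild type library.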
